A study of Saccharomyces cerevisiae with 9 samples.

Results

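The 31 genes described here encode the subunits of the nuclear RNA polymerases of budding yeast, *Saccharomyces cerevisiae*. They make up the complete list of subunit genes, of which 7 belong to Pol I alone, 2 to Pol I and Pol III, 10 to Pol III alone, 5 to all of Pol I, II and III, and 7 to Pol II alone. All 31 were found among the 6952 entries of the transcript table, and all 31 passed the filter on low counts in each comparison. The data were ribosome profiling (Ribo-Seq) counts, in which the mRNA fragments protected by ribosomes are sequenced, from 9 libraries of the W303 background grown in rich medium. There were 3 libraries of a strain lacking PAB1 and PBP1 (pab1Δpbp1Δ; PAB1 replaced by kanMX and PBP1 by URA3), 3 of a strain lacking PBP1 alone (pbp1Δ; PBP1 replaced by URA3) and 3 of the wild type (WT). PAB1 encodes the poly(A)-binding protein of the cytoplasm and is essential unless a second mutation, here the loss of PBP1, suppresses its deletion, so both deletion strains lack PBP1 and carry URA3. Per the methods, the mutant libraries came from 3 isolates of each strain, the pab1Δpbp1Δ isolates were made in a single pbp1Δ strain, and the WT libraries were repeats of 1 strain that the methods call technical, so p-values against WT treat a technical spread as a spread between samples. The pab1Δpbp1Δ strain also grew more slowly than the other two, and growth rate and genotype cannot be told apart.

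Pol I transcribes the large ribosomal RNA precursor, Pol II the mRNAs, and Pol III the tRNAs, 5S rRNA and other small RNAs. Each enzyme is built around its own pair of very large subunits that form the catalytic cleft, on an assembly platform made of a heterodimer (RPC40 with RPC19 in Pol I and III, RPB3 with RPB11 in Pol II), together with 5 small subunits common to all of them. Each has a stalk of paired subunits and a zinc ribbon subunit, and Pol I and III carry built-in pairs related to the Pol II factor TFIIF. A footprint count reflects how much of an mRNA was present and how many ribosomes were on it, and these contributions cannot be told apart in these libraries. Nor does it measure the amount of polymerase in a cell.

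Libraries held between 3149040 and 6903587 expected counts. The labels were checked at the deleted genes. PAB1 had 0, 3.00 and 0 normalized counts in pab1Δpbp1Δ libraries, against 5488, 5473 and 4564 in pbp1Δ libraries. PBP1 had 0 in all pab1Δpbp1Δ libraries and 0, 2.97 and 0 in pbp1Δ libraries, against 813, 792 and 778 in WT libraries. URA3, the marker in both deletion strains, had 351, 348 and 349.7 in pab1Δpbp1Δ libraries and 312, 313 and 340.0 in pbp1Δ libraries, against 186, 224 and 215 in WT libraries. Short and long genes differed between libraries. With genes split by length into 5 bins of like size, the median deviation of the genes in the longest bin from their mean over the 9 libraries, minus that in the shortest bin, was -0.71, -0.20 and -0.53 (log2) in pab1Δpbp1Δ libraries, -0.23, 0.30 and 0.20 in pbp1Δ libraries and 0.21, 0.37 and 0.53 in WT libraries. Hence pab1Δpbp1Δ replicate 2 held relatively more footprints of long genes than its replicates, and pbp1Δ replicate 1 relatively fewer. Of the 31 subunit genes, 16 lie in the shortest bin and 6 in the longest, so these values are given again beside the results they move with.

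Levels per transcript length (FPKM) differed between the enzymes. In WT libraries the median over subunits was 175 FPKM for the 7 subunits of Pol I alone and 169 FPKM for the 7 of Pol II alone, but 38.6 FPKM for the 10 of Pol III alone. The Pol III subunits ran from RPC82 at 76.7 ± 3.05 FPKM to RPC53 at 15.5 ± 3.999 FPKM (SD, n = 3). Thus only the upper end of the Pol III range reached the level of the lowest Pol I subunits, RPA43 (78.0 ± 3.76 FPKM) and RPA14 (64.8 ± 1.197 FPKM). Within Pol I, the catalytic subunit RPA135 (257 ± 37.5 FPKM) had the highest mean, followed by RPA190 (199 ± 18.1 FPKM) and RPA49 (194 ± 34.2 FPKM), which overlapped. RPA49 also overlapped RPA135, as it was the higher of them in WT replicate 1 (232 against 217 FPKM). Within Pol II, the stalk subunit RPB4 stood at 421 ± 37.6 FPKM and its partner RPB7 at 75.1 ± 10.05 FPKM, the highest and the lowest of the class. The other high Pol II subunit was RPB11 at 311 ± 44.1 FPKM.

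The 5 common subunits, which every polymerase molecule contains, were not uniform. RPB10 and RPB8 lay at 267 ± 59.4 and 238 ± 49.9 FPKM in WT, RPC10 at 128 ± 29.1, RPO26 at 78.8 ± 9.05 and RPB5 at 68.4 ± 8.03 FPKM. The WT libraries of RPB10 and RPB8 overlapped, as did those of RPO26 and RPB5, whereas RPC10 lay apart from both pairs. The 2 subunits shared by Pol I and III, RPC19 (260.1 ± 59.9 FPKM) and RPC40 (169 ± 16.2 FPKM), did not overlap. Neighbours in the order of WT levels overlapped in 3 of 6 pairs in Pol I, 4 of 9 in Pol III and 3 of 6 in Pol II. FPKM divides by a transcript length that includes untranslated regions, and this matters for the smallest genes. Counted per RefSeq gene length instead (a choice made after seeing the data), RPB10 and RPC10 stood at 658 and 303.1 in the units of FPKM, and RPB11 (615) passed RPB4 (490.1), as RPA49 (225) did RPA190 (209). The median of the Pol III class stayed lowest on that scale too, at 48.8 against 196 for Pol I and 207 for Pol II.

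**Figure D1:**
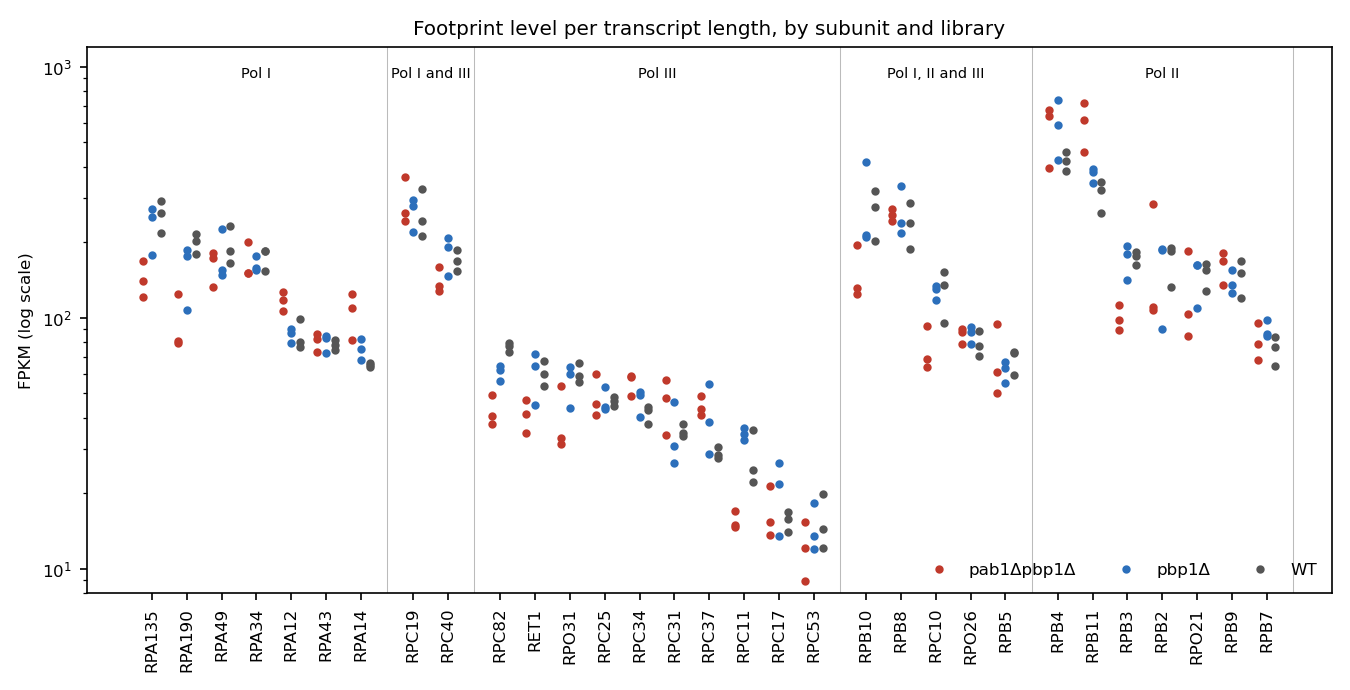
FPKM of each subunit gene (log axis) in the 3 libraries each of pab1Δpbp1Δ, pbp1Δ and WT (left to right at each gene), with genes grouped by the polymerases that contain them and ordered by their WT mean. By their WT means, 9 of 10 Pol III subunits lie below all subunits of the other classes, and RPB4 and RPB11 lie highest.

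With PAB1 deleted, footprints of 8 of the 31 subunit genes fell and none rose, relative to pbp1Δ (DESeq2, adjusted p below 0.01). The 8 were the catalytic subunits of Pol I, RPA190 and RPA135, the second largest subunit of Pol III, RET1, its initiation subunit RPC82 and zinc ribbon subunit RPC11, the Pol II platform subunit RPB3, and the common subunits RPB10 and RPC10. Their log2 fold changes lay between -0.64 and -1.26, so that mean normalized counts in pab1Δpbp1Δ libraries were 42% to 65.2% of those in pbp1Δ libraries. By class, 2 of 7 Pol I, 0 of 2 Pol I and III, 3 of 10 Pol III, 2 of 5 common and 1 of 7 Pol II subunits fell. Since libraries were scaled by size factors, falls and rises are relative to the other entries and are not absolute amounts. Over all 5772 entries tested, 21.3% were called, 11.1% as higher and 10.2% as lower. The members' share called in either direction (25.8%) was thus near that of all entries, and all of it was lower. Libraries of the strains did not overlap for 9 members, 7 of them lower in pab1Δpbp1Δ and 2 higher, where 22.1% and 23.9% of all entries did so, 46% in all. The median log2 fold change was -0.16 over the 31 members and 0.03 over all entries. By class the median was -0.11 for Pol I, -0.24 for Pol I and III, -0.39 for Pol III, -0.16 for the common and -0.15 for the Pol II subunits, of which that of Pol I, the value of its middle member RPA43, turned to 0.0079 with scaling to total counts. These medians moved with single libraries, over ranges of -0.23 to -0.015 for Pol I, -0.31 to -0.15 for Pol I and III, -0.54 to -0.26 for Pol III, -0.29 to -0.11 for the common and -0.28 to -0.12 for the Pol II subunits when each library was left out in turn. The count was 3 with edgeR's quasi-likelihood test (RPC10, RPC11 and RPB3; 16.4% of its entries called), and 5 with scaling to total counts, which moved the median of all entries to 0.15 and called RPB11 as higher beside 4 members as lower.

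**Figure D2:**
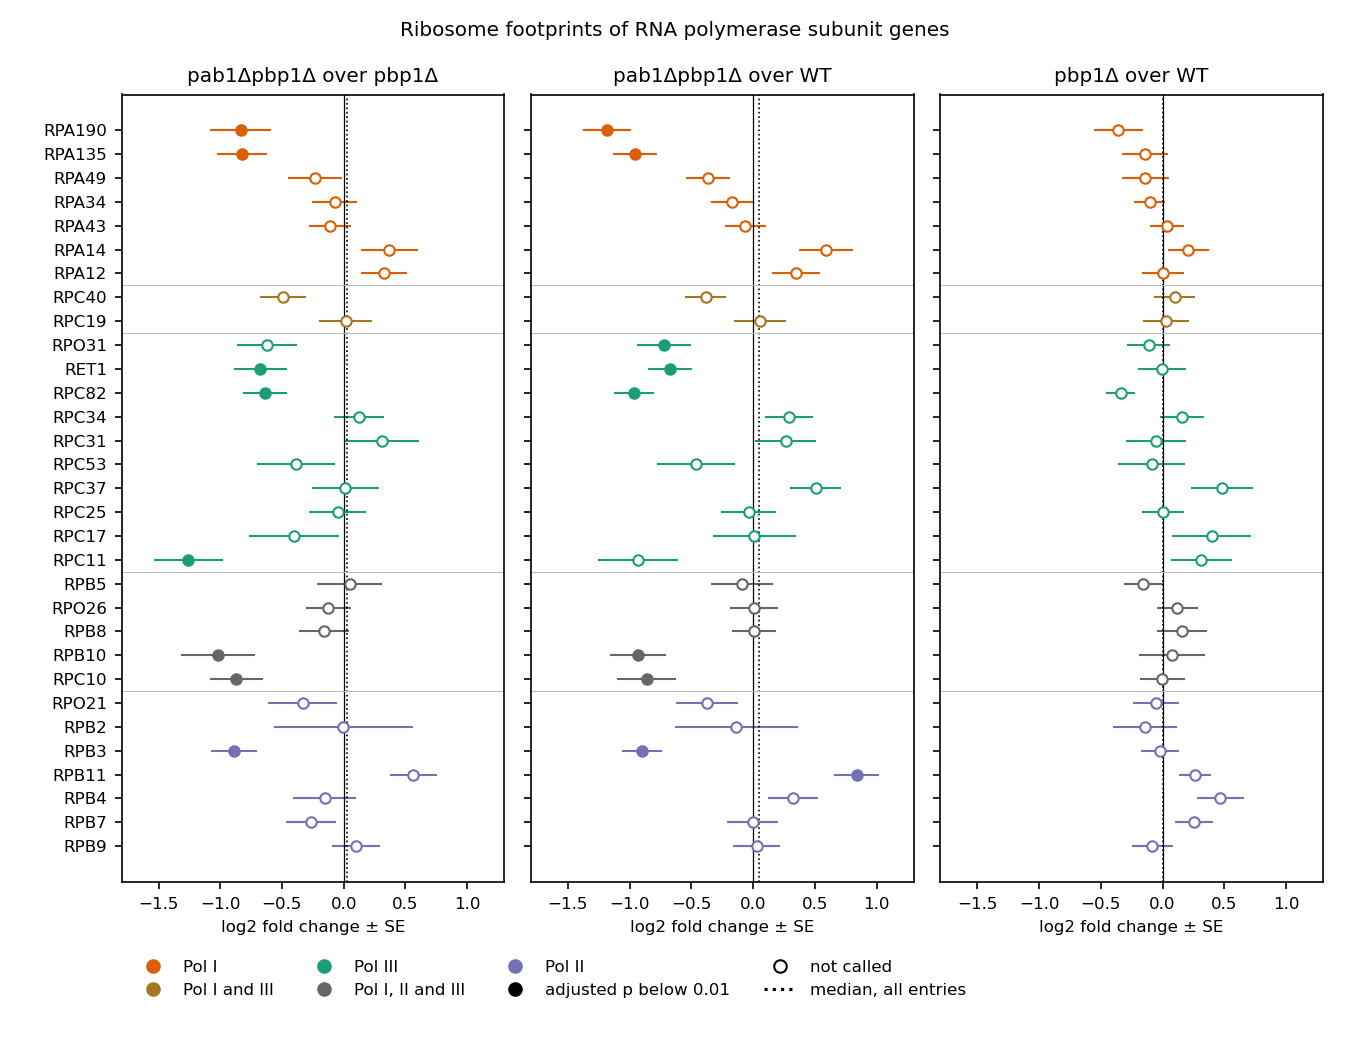
Log2 fold change ± SE of each subunit gene (DESeq2, 3 libraries per strain) in pab1Δpbp1Δ over pbp1Δ, pab1Δpbp1Δ over WT, and pbp1Δ over WT. Filled points have an adjusted p below 0.01 and dotted lines mark the median of all tested entries. The left panel holds 8 filled points, all below 0, and the right panel none.

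In Pol I the calls were the catalytic pair, both in the longest bin of genes. Relative to the median of their bins, RPA190 and RPA135 stood at -0.69 and -0.68, and RPA34, which was not called, at -0.51. RPA190, the largest subunit (chromosome XV, 960987 to 965981; R64 assembly, forward strand), had 2156, 3311 and 2119 normalized counts in pab1Δpbp1Δ libraries, against 3066, 5329 and 5016 in pbp1Δ libraries. Only pab1Δpbp1Δ replicate 2 reached above the lowest pbp1Δ library, replicate 1, so the strains overlapped by that pair (log2 fold change -0.84 ± 0.25, adjusted p = 0.00439). RPA135, the second largest subunit (chromosome XVI, 577585 to 581196; reverse strand), had 2361, 3284 and 2751 in pab1Δpbp1Δ libraries, against 3732, 5314 and 5682 in pbp1Δ libraries, and here all pab1Δpbp1Δ libraries lay lower (-0.82 ± 0.20, adjusted p = 0.00042). The calls depended on single libraries. The adjusted p of RPA190 was 0.0722 without pbp1Δ replicate 2, 0.059 without pbp1Δ replicate 3, 0.0412 without pab1Δpbp1Δ replicate 1 and 0.0491 without pab1Δpbp1Δ replicate 3, with log2 fold changes between -1.07 and -0.69 over the 6 omissions. For RPA135 it was 0.0144 and 0.0182 without pbp1Δ replicates 2 and 3, with log2 fold changes between -0.99 and -0.71.

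The remaining Pol I subunits did not pass the test. The TFIIF-like pair that aids elongation, RPA49 and RPA34, had log2 fold changes of -0.23 ± 0.22 and -0.07 ± 0.18. The ratio of RPA49 to RPA34 was 0.986 ± 0.196 in pab1Δpbp1Δ, 1.08 ± 0.185 in pbp1Δ and 1.11 ± 0.129 in WT (FPKM, SD, n = 3), and the strains overlapped. In the stalk, which contacts the initiation factor Rrn3, RPA43 stood at -0.11 ± 0.17 and RPA14, whose end overlaps an adjacent open reading frame by a few bases, at 0.37 ± 0.23. The ratio of RPA43 to RPA14 was 0.78 ± 0.106 in pab1Δpbp1Δ, 1.08 ± 0.176 in pbp1Δ and 1.2 ± 0.0803 in WT (FPKM, SD, n = 3), and only pab1Δpbp1Δ replicate 2 reached above the lowest library of the other strains, pbp1Δ replicate 1. RPA12, the zinc ribbon subunit needed for RNA cleavage, stood at 0.33 ± 0.19, with 290.5, 318 and 344 normalized counts in pab1Δpbp1Δ libraries, against 232, 264 and 252 in pbp1Δ libraries. Its libraries did not overlap, but the adjusted p was 0.175. The values of RPA34 and RPA43 are close to 0 and changed sign with scaling to total counts (0.04 and 0.01). RPA14 and RPA12 are short genes, and their values changed sign with a trend on gene length removed across libraries (-0.17 and -0.25). RPA43 (chromosome XV, 959202 to 960182; reverse strand) is the neighbour of RPA190, transcribed away from it across 804 bases. Its counts were 499.5, 423 and 478 in pab1Δpbp1Δ libraries, against 451, 518 and 523 in pbp1Δ libraries, so the divergent neighbours had log2 fold changes of -0.11 and -0.84.

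The platform pair shared by Pol I and III is RPC40 with RPC19. RPC40 had 789.9, 820.5 and 985 normalized counts in pab1Δpbp1Δ libraries, against 972, 1269.6 and 1366 in pbp1Δ libraries, and missed the threshold (-0.49 ± 0.19, adjusted p = 0.0315). The overlap came from pab1Δpbp1Δ replicate 3 and pbp1Δ replicate 1, and without pbp1Δ replicate 1 RPC40 was called (-0.62 with adjusted p = 0.00245). RPC19 had 1130.3, 748 and 816 in pab1Δpbp1Δ libraries, against 983, 928 and 726 in pbp1Δ libraries, with a log2 fold change of 0.02 ± 0.21. The ratio of RPC40 to RPC19 was 0.504 ± 0.135 in pab1Δpbp1Δ libraries, 0.71 ± 0.224 in pbp1Δ libraries and 0.682 ± 0.206 in WT libraries (FPKM, SD, n = 3), and the libraries of the strains overlapped.

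Among the common subunits, the smallest, RPB10 and RPC10, fell. Both are small zinc-binding proteins that sit near the platform pair. RPB10 (chromosome XV, 738320 to 738532; forward strand) had 523, 332 and 353 normalized counts in pab1Δpbp1Δ libraries, against 1204, 616 and 602 in pbp1Δ libraries (-1.02 ± 0.30, adjusted p = 0.0037). All pab1Δpbp1Δ libraries lay lower, but pbp1Δ replicate 1 stood far above its replicates, and without it the log2 fold change was -0.61 with adjusted p = 0.052. The call was lost as well without pab1Δpbp1Δ replicate 2 (adjusted p = 0.0387) or replicate 3 (0.037). RPC10 (chromosome VIII, 387233 to 387445; forward strand) had 177, 238 and 165 in pab1Δpbp1Δ libraries, against 363, 328 and 367 in pbp1Δ libraries (-0.87 ± 0.22, adjusted p = 0.000404). Its groups lay well apart, and the call was lost only without pbp1Δ replicate 3 (adjusted p = 0.0112). The larger common subunits did not pass the test, with log2 fold changes of 0.05 ± 0.26 for RPB5, a jaw subunit, -0.13 ± 0.18 for RPO26 (also called RPB6) and -0.16 ± 0.20 for RPB8. The signs of RPB5 and RPB8 changed when single libraries were left out. RPB8 had 733, 768 and 697 in pab1Δpbp1Δ libraries, against 1033, 672 and 729.7 in pbp1Δ libraries, again with pbp1Δ replicate 1 highest.

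In Pol III, 3 of 10 subunits fell, from different modules. RPC11, the zinc ribbon subunit that acts in RNA cleavage and termination (chromosome IV, 547978 to 548310; reverse strand), had the lowest log2 fold change of all members. It had 47.2, 54.4 and 48.5 normalized counts in pab1Δpbp1Δ libraries, against 113, 119.8 and 125 in pbp1Δ libraries (-1.26 ± 0.28, adjusted p = 6.57e-05). The groups were tight and far apart, the call held without each of the 6 libraries in turn, and in all 19 alternative settings that gave a test. These are low counts, however, and they rested on few reads per library. RET1, the second largest subunit, had 651, 876 and 774 in pab1Δpbp1Δ libraries, against 901, 1304 and 1437 in pbp1Δ libraries (-0.68 ± 0.22, adjusted p = 0.00822). The strains did not overlap, but the gap between pab1Δpbp1Δ replicate 2 and pbp1Δ replicate 1 was small. RPC82, a winged-helix subunit of the initiation trimer, had 399, 426 and 520.0 in pab1Δpbp1Δ libraries, against 631, 735 and 698 in pbp1Δ libraries (-0.64 ± 0.18, adjusted p = 0.00206), again without overlap. RET1 lost its call without pbp1Δ replicates 2 or 3 (adjusted p = 0.0742 and 0.102) and without pab1Δpbp1Δ replicates 1 or 3 (0.0579 and 0.0356). RPC82 lost it without pbp1Δ replicates 2 or 3 (0.037 and 0.0257) and without pab1Δpbp1Δ replicates 1 or 2 (0.0157 and 0.0184).

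RPO31, the largest Pol III subunit, had 782, 1252 and 737 normalized counts in pab1Δpbp1Δ libraries, against 1099, 1620.1 and 1505 in pbp1Δ libraries, and missed the threshold (-0.62 ± 0.24, adjusted p = 0.037). As for RPA190, the overlap came from a high pab1Δpbp1Δ replicate 2 and a low pbp1Δ replicate 1. Without pab1Δpbp1Δ replicate 2 it was called (-0.90 with adjusted p = 0.000402). The partners of RPC82 in the initiation trimer, RPC34 and RPC31, stood at 0.12 ± 0.20 and 0.31 ± 0.30, so that the falling subunit had partners with values above 0 that did not pass the test. The TFIIF-like pair, which acts in termination, had -0.39 ± 0.32 for RPC53 and 0.01 ± 0.27 for RPC37. The ratio of RPC53 to RPC37 was 0.316, 0.208 and 0.294 in pab1Δpbp1Δ libraries, against 0.337, 0.350 and 0.421 in pbp1Δ libraries (FPKM). WT libraries had 0.699, 0.398 and 0.521. Every pab1Δpbp1Δ library thus lay below every library of the other strains for this ratio too, though close to pbp1Δ replicate 1. The stalk subunits had -0.05 ± 0.23 for RPC25 and -0.40 ± 0.36 for RPC17. Their ratio, RPC25 to RPC17, was 2.91 ± 0.107 in pab1Δpbp1Δ, 2.52 ± 1.22 in pbp1Δ and 2.99 ± 0.158 in WT (FPKM, SD, n = 3), and the strains overlapped. RPC17 and RPC53 rested on few counts, with 78.1, 55.9 and 50.1 for RPC17 in pab1Δpbp1Δ libraries, against 53.2, 85.9 and 103 in pbp1Δ libraries, and their standard errors were accordingly wide. The sign of RPC25 changed with scaling to total counts (0.07), and that of RPC37 without ribosomal protein genes in the size factors (-0.0028).

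In Pol II the partners of the platform pair had values of opposite sign. RPB3 (chromosome IX, 312905 to 313861; forward strand) had 657, 566 and 523 normalized counts in pab1Δpbp1Δ libraries, against 880.4, 1129.5 and 1201 in pbp1Δ libraries (-0.89 ± 0.19, adjusted p = 2.18e-05). All pab1Δpbp1Δ libraries lay below all others, and the call held without each of the 6 libraries in turn. RPB11 (chromosome XV, 315813 to 316175; reverse strand), with which RPB3 dimerizes, had 2259, 2613 and 1688 in pab1Δpbp1Δ libraries, against 1505, 1358 and 1532 in pbp1Δ libraries. The groups did not overlap, but RPB11 just missed the threshold (0.57 ± 0.19, adjusted p = 0.0125), and was called without pab1Δpbp1Δ replicate 3 (0.72 with adjusted p = 0.00012). The ratio of RPB3 to RPB11 was 0.184, 0.137 and 0.196 in pab1Δpbp1Δ libraries, 0.369, 0.524 and 0.494 in pbp1Δ libraries and 0.465, 0.546 and 0.697 in WT libraries (FPKM). Every pab1Δpbp1Δ library thus lay below every library of the other strains, with a mean of 0.172 ± 0.0312 in pab1Δpbp1Δ, 0.462 ± 0.082 in pbp1Δ and 0.569 ± 0.118 in WT (SD, n = 3). RPB3 is the longer gene (957 against 363 bases). With a trend on gene length removed across libraries, RPB3 stayed at -0.92 with adjusted p = 5.74e-06 while RPB11 stood at -0.02 with adjusted p = 0.955.

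**Figure D3:**
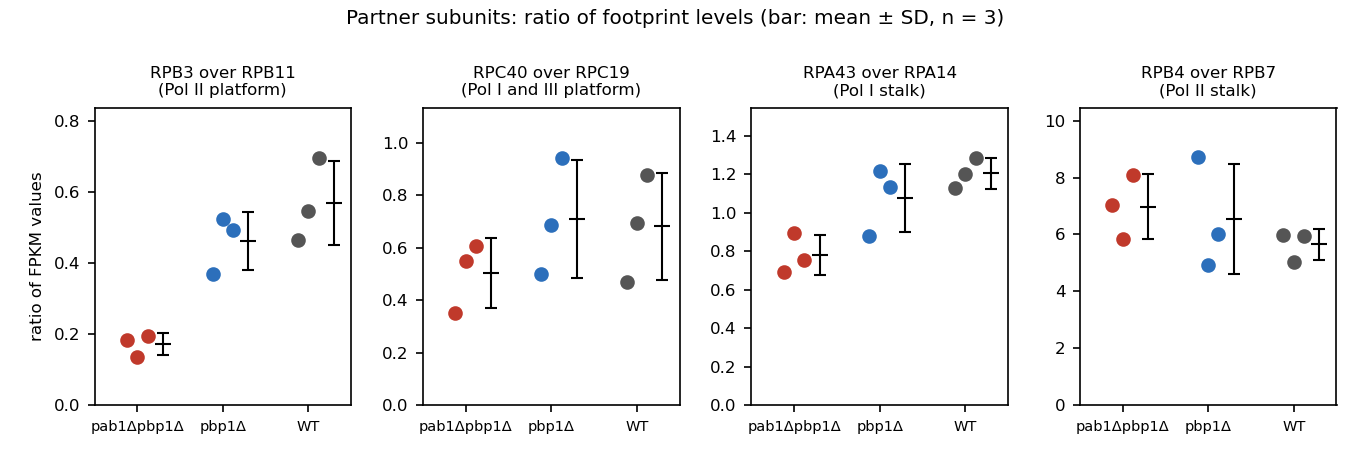
Ratio of FPKM values of partner subunits in each library of pab1Δpbp1Δ, pbp1Δ and WT (left to right, points), with the mean ± SD of 3 libraries beside them. The RPB3 to RPB11 ratio in pab1Δpbp1Δ libraries, 0.137 to 0.196, lies below that of all other libraries, while the RPC40 to RPC19 and RPB4 to RPB7 ratios overlap between strains.

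The large Pol II subunits did not pass the test and varied widely between libraries. RPO21, the largest subunit, which carries the repeated C-terminal domain, had 2349, 5115 and 2857 normalized counts in pab1Δpbp1Δ libraries, against 3227, 4847 and 4793 in pbp1Δ libraries (-0.33 ± 0.28, adjusted p = 0.399). RPB2, the second largest, had 2130.3, 5630.2 and 2202 in pab1Δpbp1Δ libraries, against 1921, 3983 and 3990.4 in pbp1Δ libraries. Here pab1Δpbp1Δ replicate 2 was the highest of all 9 libraries and pbp1Δ replicate 1 the lowest, so that the log2 fold change of -0.0043 had a standard error of 0.56 and a 95% interval of -1.11 to 1.10. That interval holds the value of RPA135 as well as 0. Without pab1Δpbp1Δ replicate 2, RPO21 was called (-0.73 with adjusted p = 0.00776) and RPB2 was not (-0.61 with adjusted p = 0.123). The stalk subunits RPB4 and RPB7, which join the core reversibly, stood at -0.15 ± 0.26 and -0.27 ± 0.20, and RPB9, the zinc ribbon subunit, at 0.10 ± 0.19. The ratio of RPB4 to RPB7 was 6.98 ± 1.14 in pab1Δpbp1Δ, 6.55 ± 1.95 in pbp1Δ and 5.65 ± 0.552 in WT (FPKM, SD, n = 3), and the strains overlapped.

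**Figure D4:**
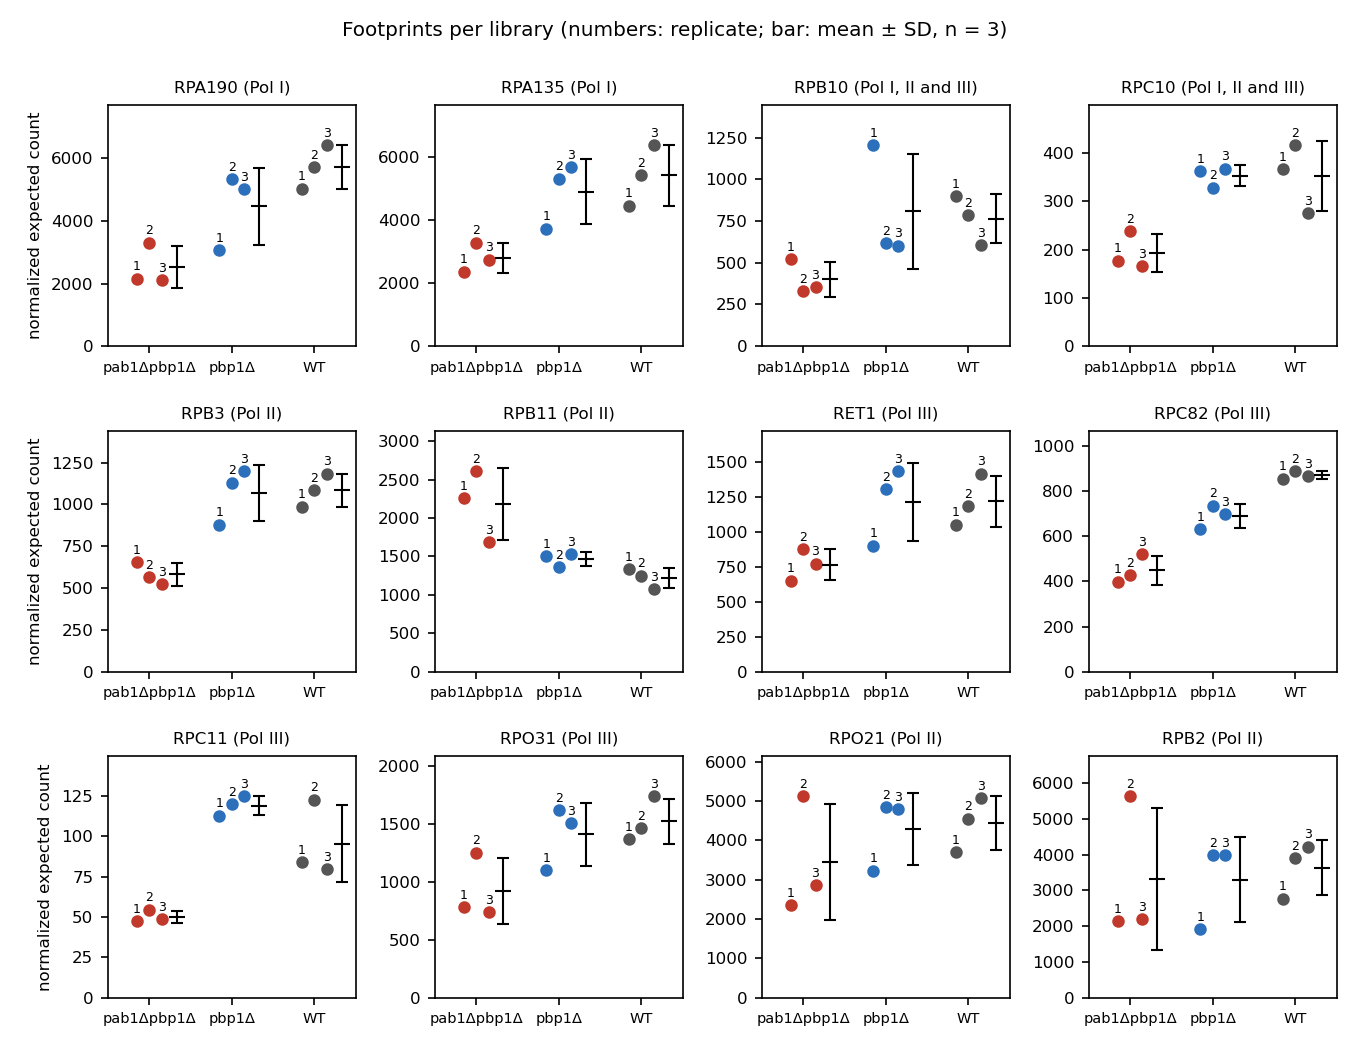
Normalized expected counts of 12 subunit genes in the 3 libraries each of pab1Δpbp1Δ, pbp1Δ and WT (points, labelled by replicate number), with the mean ± SD beside them. RPA190, RPA135, RET1, RPO31, RPO21 and RPB2 share a high pab1Δpbp1Δ replicate 2 and a low pbp1Δ replicate 1. RPA135, RPB10, RPC10, RPB3, RET1, RPC82 and RPC11 lie below pbp1Δ without overlap, and RPB11 lies above it.

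Since the large subunits moved together from library to library, they were also compared within libraries, as the log2 ratio of a Pol I or Pol III subunit to its Pol II counterpart. Of RPA190 over RPO21 the ratio was -0.12, -0.63 and -0.43 in pab1Δpbp1Δ libraries, against -0.07, 0.14 and 0.07 in pbp1Δ libraries, and every pab1Δpbp1Δ library lay lower. Of RPA135 over RPB2 it was 0.15, -0.78 and 0.32 in pab1Δpbp1Δ libraries, against 0.96, 0.42 and 0.51 in pbp1Δ libraries, also without overlap. The differences were -0.44 (exact p = 0.1, adjusted 0.267) and -0.73 (exact p = 0.1, adjusted 0.267), and the second was -0.39 without pab1Δpbp1Δ replicate 2. For Pol III, the ratios overlapped, with differences of -0.25 (exact p = 0.2, adjusted 0.32) for RPO31 over RPO21 and -0.58 (exact p = 0.2, adjusted 0.32) for RET1 over RPB2. These were exact two-sided permutation tests, 8 in all, and with 3 libraries against 3 they cannot go below p = 0.1, so none could pass a threshold of 0.05. In pbp1Δ over WT, RPA190 over RPO21 did not overlap either, with a difference of -0.33 (exact p = 0.1, adjusted 0.267) and -0.07, 0.14 and 0.07 in pbp1Δ libraries, against 0.44, 0.33 and 0.34 in WT libraries. The 3 strains thus formed a descending series, WT, pbp1Δ and pab1Δpbp1Δ, without overlap for this ratio alone. The other ratios in pbp1Δ over WT overlapped, with differences of -0.06 for RPO31 over RPO21, 0.04 for RPA135 over RPB2 and 0.17 for RET1 over RPB2.

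The members were also set out by role in the 3 enzymes, for pab1Δpbp1Δ over pbp1Δ. For the largest subunit, log2 fold changes were -0.84 for RPA190 of Pol I, -0.33 for RPO21 of Pol II and -0.62 for RPO31 of Pol III. For the second largest they were -0.82 for RPA135, -0.0043 for RPB2 and -0.68 for RET1. For the zinc ribbon subunit they were 0.33 for RPA12, 0.10 for RPB9 and -1.26 for RPC11. The stalk subunits lay between -0.40 (RPC17) and 0.37 (RPA14) and the TFIIF-like pairs between -0.39 (RPC53) and 0.01 (RPC37), and none of these passed the test. On the platform, values were -0.49 for RPC40 and 0.02 for RPC19, and -0.89 for RPB3 and 0.57 for RPB11. With the length trend removed across libraries the first pair stood at -0.49 and -0.50, and RPB11, as given above, at -0.02. The differences between counterparts were tested only as the ratios of large subunits given above.

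Gene length moved with these results. In pab1Δpbp1Δ over pbp1Δ, the median log2 fold change of all tested genes was 0.44 in the shortest of the 5 length bins (705 bases or fewer), then 0.13, -0.09, -0.19 and -0.14 in the following bins. The 6 large subunits of the longest bin had a median of -0.65, and 3 of them were called lower, where 14.5% of the genes in that bin were. The 16 members in the shortest bin had a median of -0.10, and 3 of them (RPB10, RPC10 and RPC11) were called lower, where 3.13% of the genes in that bin were and 25.2% were called higher. So the falling small subunits went against the direction of genes of their length, by -1.45 for RPB10, -1.31 for RPC10 and -1.69 for RPC11 relative to the median of that bin. In all, 15 of the 16 shortest members lay below the median of their bin, RPB11 being the exception. In the following bins 5 of 6, 2 of 2, 1 of 1 and 5 of 6 members did, so this was not particular to the short ones. The lengths' part in the results was not tested beyond refits chosen after seeing the data. With a length trend removed only from the spread within strains, 9 members were called, all lower, among them RPO31 (-0.63 with adjusted p = 0.000341), where 23.9% of all entries were called and 11.7% were lower. With the trend removed across all libraries as well, which takes out the strain difference in length itself, 9 were called lower, namely RPA190, RPA135, RPB10, RPC10, RPO31, RPC11, RPB3, RPB8 and RPB7, where 18.2% of all entries were called and 8.87% were lower, while RET1 and RPC82 were not (adjusted p = 0.0109 and 0.0578). The smallest subunits then stood at -1.73 for RPB10, -1.63 for RPC10 and -1.89 for RPC11.

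**Figure D5:**
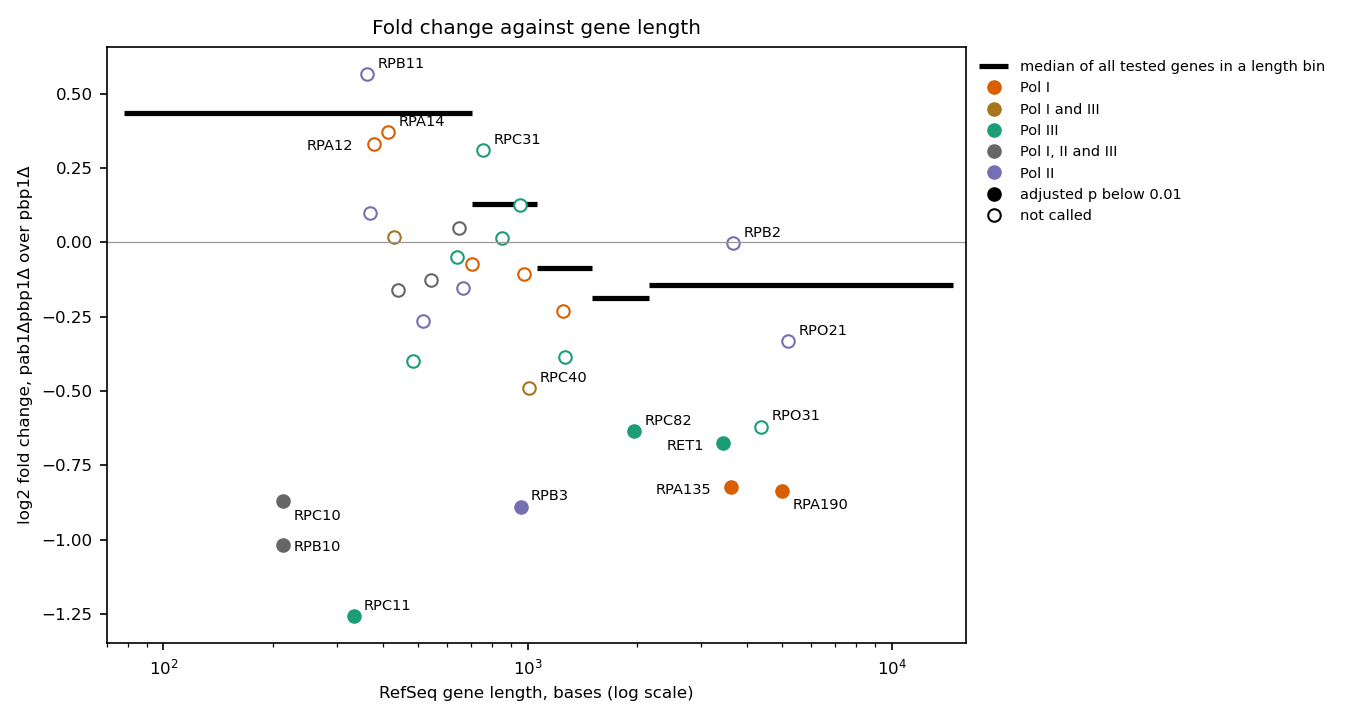
Log2 fold change of each subunit gene in pab1Δpbp1Δ over pbp1Δ (DESeq2) against its RefSeq gene length (log axis), with horizontal bars at the median of all tested genes in each of 5 bins of gene length. Filled points have an adjusted p below 0.01. RPB10, RPC10 and RPC11 lie far below the bar of the shortest genes at 0.44, and RPB11 is the only member above it.

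Relative to WT, 9 members were called in pab1Δpbp1Δ, 8 lower and 1 higher, where 30.9% of 5880 entries were called, 15.3% lower and 15.7% higher. With edgeR 9 members were called too, where 31.9% of its entries were. Since this comparison shares the pab1Δpbp1Δ libraries with the comparison to pbp1Δ, its values stand beside the others as a description. RPA190 was lowest, with 2156, 3311 and 2119 normalized counts in pab1Δpbp1Δ libraries, against 5025, 5718 and 6417 in WT libraries (-1.18 ± 0.20, adjusted p = 1.83e-08). The other Pol I call was RPA135 (-0.96 ± 0.18, adjusted p = 8.49e-07), and both catalytic subunits lay below all WT libraries. In Pol III the calls were RPC82 (-0.97 ± 0.16, adjusted p = 2.25e-08), RPO31 (-0.72 ± 0.22, adjusted p = 0.00309) and RET1 (-0.67 ± 0.18, adjusted p = 0.000735). RPB3 (-0.90 ± 0.16, adjusted p = 1.65e-07) and the common subunits RPB10 (-0.93 ± 0.23, adjusted p = 0.00022) and RPC10 (-0.86 ± 0.24, adjusted p = 0.00123) were called as well. RPB11 was the highest member and rose, with 2259, 2613 and 1688 in pab1Δpbp1Δ libraries, against 1337, 1252 and 1071 in WT libraries (0.84 ± 0.19, adjusted p = 4.3e-05), although with the length trend removed across libraries it stood at 0.10 with adjusted p = 0.709. RPC11, named here for its value against pbp1Δ, was not called against WT (-0.93 ± 0.33, adjusted p = 0.0129). Its WT counts of 84.0, 123 and 79.7 spread more widely than those of pbp1Δ. In all, 11 members lay below and 5 above all WT libraries, where 26% and 29.1% of all entries did, 55.1% in all.

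Some of these calls rested on single libraries. RPO31 was not called without any of WT replicates 1, 2 or 3 or pab1Δpbp1Δ replicates 1 or 3 (adjusted p between 0.0105 and 0.0524), RPC10 not without WT replicates 1 or 2 or pab1Δpbp1Δ replicates 1 or 3 (0.0103 to 0.0322), RPB10 not without WT replicate 1 (0.0105) and RET1 not without WT replicate 3 (0.0213). RPA190, RPA135, RPC82, RPB3 and RPB11 were called without each library in turn.

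Loss of PBP1 alone left no member past the threshold. In pbp1Δ over WT, 0 of 31 subunit genes were called by DESeq2 or by edgeR, where 1.21% of 5638 entries were called by DESeq2 (0.869% lower and 0.337% higher) and 0.0192% by edgeR, and 3 members (RPC82, RPB4 and RPB11) had an unadjusted p under 0.05. RPA190 was lowest, with 3066, 5329 and 5016 normalized counts in pbp1Δ libraries, against 5025, 5718 and 6417 in WT libraries (-0.36 ± 0.20, adjusted p = 0.47). Without pbp1Δ replicate 1 it stood at -0.15 and RPC82, at -0.28, lay lower. RPC37 was highest, with 287, 204 and 150.3 in pbp1Δ libraries, against 147, 159.8 and 152 in WT libraries (0.48 ± 0.25, adjusted p = 0.41), and both genes overlapped between the strains. RPC82 was lower in all pbp1Δ libraries than in any WT library (-0.34 ± 0.12, adjusted p = 0.103), so that its values descended over WT, pbp1Δ and pab1Δpbp1Δ without overlap. RPB4 stood at 0.47 ± 0.19, adjusted p = 0.208, and was called only without pbp1Δ replicate 2 (0.65 with adjusted p = 0.00609). RPB11 stood at 0.26 ± 0.13, adjusted p = 0.366, and was higher in all pbp1Δ libraries. The median over members was 0.0035, against 0.0022 over all entries, and libraries did not overlap for 4 members (3 higher, 1 lower), where 11.8% and 11.5% of entries did so, 23.3% in all.

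Summed over members, the share of all expected counts was 0.547% ± 0.0774 in pab1Δpbp1Δ libraries, 0.642% ± 0.0648 in pbp1Δ libraries and 0.664% ± 0.0318 in WT libraries (SD, n = 3). The Pol I subunits held 0.163% ± 0.0151 in pab1Δpbp1Δ, 0.228% ± 0.0341 in pbp1Δ and 0.262% ± 0.0181 in WT. The Pol II subunits held 0.247% ± 0.0613 in pab1Δpbp1Δ, 0.246% ± 0.0311 in pbp1Δ and 0.236% ± 0.0184 in WT. The Pol III subunits held 0.0641% ± 0.00488 in pab1Δpbp1Δ, 0.0821% ± 0.00874 in pbp1Δ and 0.0849% ± 0.00396 in WT. No pab1Δpbp1Δ library reached the lowest Pol I or Pol III share of pbp1Δ, while the Pol II shares overlapped. The highest Pol II share was that of pab1Δpbp1Δ replicate 2 (0.318%). These sums weigh long genes with many counts most. In pbp1Δ, RPA190 and RPA135 had means of 4470 and 4909 normalized counts, and the next Pol I subunit, RPA49, 1392. In Pol III, RPO31 and RET1 had 1408 and 1214, and the next, RPC82, 688. Footprints of long genes were also relatively fewer in pab1Δpbp1Δ libraries, as given above. In FPKM, the summed level of the 3 largest subunits was 259 ± 91.02 in pab1Δpbp1Δ, 357 ± 84.0 in pbp1Δ and 408 ± 41.9 in WT.

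The proteins that work with the polymerases were examined as a list of 58 genes, all found in the table: initiation factors of Pol I, II and III, the TATA-binding protein, Pol II elongation factors, and factors for the assembly and import of polymerases. In pab1Δpbp1Δ over pbp1Δ, 3 of the 58 fell and 1 rose, where 10.2% of all entries were called lower and 11.1% higher (21.3% in all), so the list held a smaller share of calls than all entries did. Its median log2 fold change was -0.12, against 0.03 over all entries. Some listed genes had few counts, which limits their calls. RRN11 and TFB5 had means of 21.9 and 14.0 normalized counts in pbp1Δ, with standard errors of 0.51 and 0.57. HMO1, an HMG-box protein that binds the rDNA, was the only call among 9 Pol I factors, with 655, 520.3 and 724 normalized counts in pab1Δpbp1Δ libraries, against 993, 1125 and 976 in pbp1Δ libraries (-0.72 ± 0.18, adjusted p = 0.000485). The Pol II elongation factors held the other calls, 3 of 11. CDC73 and PAF1, members of the Paf1 complex, fell (-0.77 ± 0.18, adjusted p = 0.000231 and -0.63 ± 0.19, adjusted p = 0.0047). The other listed members of that complex were not called. These were CTR9 (-0.47 ± 0.25, adjusted p = 0.143), LEO1 (-0.17 ± 0.20, adjusted p = 0.561) and RTF1 (-0.12 ± 0.19, adjusted p = 0.710). CDC73 was the lowest gene of the list, and its counts, 447, 354 and 327 in pab1Δpbp1Δ libraries, against 634, 652 and 621 in pbp1Δ libraries, lay far apart. SPT4, the small partner of SPT5, was the highest and rose, with 591, 332 and 435 in pab1Δpbp1Δ libraries, against 296, 140.5 and 171 in pbp1Δ libraries (1.15 ± 0.31, adjusted p = 0.00164).

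No call was made among 18 general factors of Pol II, 10 Pol III factors including Maf1, 9 assembly and import factors, or for the TATA-binding protein, where 2, 3, 0 and 0 genes had an unadjusted p under 0.05. CDC73 was called without each library in turn. HMO1 was not called without pbp1Δ replicate 2 (adjusted p = 0.0175). PAF1 kept its call only without pbp1Δ replicate 1, and SPT4 only without pbp1Δ replicate 1 or pab1Δpbp1Δ replicate 2. In the other omissions adjusted p-values were up to 0.0528 for PAF1 and 0.0361 for SPT4. SPT4 is a short gene, and with the length trend removed across libraries it stood at 0.52 with adjusted p = 0.0959. In pab1Δpbp1Δ over WT, 7 of the 58 were called, where 30.9% of all entries were. These were HMO1 (-0.51 ± 0.17), CDC73 (-0.93 ± 0.18), PAF1 (-0.83 ± 0.19), CTR9 of the same complex (-0.75 ± 0.23), the TFIIH helicase RAD3 (-0.96 ± 0.18) and MAF1, the repressor of Pol III (-0.90 ± 0.22), which were lower, and SPT4 (1.78 ± 0.26), which was higher. When each library was left out in turn, HMO1 kept its call in only 1 of 6 fits and CTR9 in only 2 of 6. Their adjusted p-values were up to 0.0501 and 0.0527, without WT replicate 3. LEO1 and RTF1 of the Paf1 complex were not called against WT (-0.11 ± 0.18 and -0.08 ± 0.17). In pbp1Δ over WT, 0 of the 58 were called by DESeq2 or edgeR, with 5 at an unadjusted p under 0.05.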

How the data were processed

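The authors prepared ribosome-protected fragments with RNase I and isolation of 80S ribosomes. Per the submitters' processing notes, reads were handled with cutadapt 1.9 and UMI-tools (removal of PCR duplicates), Bowtie 1.0.0 and RSEM 1.3.0 on the R64 build, with spliced and unspliced transcript forms. The authors deposited expected counts from RSEM, estimates that divide multi-mapping reads among transcripts, and FPKM values scaled by transcript length and depth. Which libraries shared a sequencing run is not given in the sources used here.

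Expected counts of the transcript table (6952 entries) were rounded and compared between pairs of strains (3 libraries each, 6 in a fit) with DESeq2 1.42.0 under R 4.3.3, with independent filtering. Entries with a p below 0.01 after Benjamini-Hochberg adjustment over all entries were called, as in the study's methods. Printed normalized counts are expected counts divided by DESeq2 size factors over all 9 libraries, whereas fold changes come from the pairwise fits. Total counts were 3149040 to 6903587 per library, so 3 counts correspond to between 4.35e-05% and 9.53e-05% of a library. Intervals cover counting error and the spread between these libraries. Strains were said not to overlap where the normalized counts of the 3 libraries of each formed separate ranges. Ratios within libraries were compared by exact two-sided permutation tests. Replicates of a strain differed beyond sampling noise (chi-square per degree of freedom 5.97 to 43.6 over 9 pairs), so each library was counted once. The fits were tested on simulated counts with a fixed dispersion and no length trend, so that test does not cover the length trends of these libraries.

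Alternatives were edgeR 4.0.16, limma 3.58.1 on log2(FPKM + 1) and log2(FPKM + 0.1) of entries with a mean FPKM of at least 1, TMM factors, size factors without ribosomal protein genes, total counts, a minimum mean count of 10, no independent filtering, the gene table (6656 entries), all 9 libraries in a fit, the replicate number as a block, a threshold of 0.05, and leaving out each library. Refits with a trend on gene length removed (loess, span 0.5, minimum mean count 50) and levels per gene length were added after seeing the data. The text names all 31 members in pab1Δpbp1Δ over pbp1Δ. In the other comparisons, and for the 58 other genes of the pathway, it names those called and, for members against WT and for the 58 genes against pbp1Δ, also the highest and the lowest. RPC11 in pab1Δpbp1Δ over WT, and RPC82, RPB4 and RPB11 in pbp1Δ over WT, were named after their values were seen. Uncalled members of the Paf1 complex were named beside the called ones, also after their values were seen. The members and gene lists were chosen with earlier results of these data known. Locations and gene lengths came from RefSeq (R64).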

Additional observations from a re-analysis of the deposited data

Results flagged for a closer look

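RPO26, the only subunit gene here with a separate unspliced entry, drew signal on that entry in pbp1Δ libraries, at a mean of 6.75 expected counts (6.21, 9.46 and 4.57), against 0 in all 3 WT libraries. The 3 pab1Δpbp1Δ libraries were also at 0. This entry was used in no comparison above. RSEM divides reads that match both forms, and the part of that division in these values was not tested.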

How the results depend on the processing

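Relative to pbp1Δ, the 8 subunit genes called in pab1Δpbp1Δ became 3 with edgeR, 5 with total counts and 1 with limma on either FPKM scale, and 3 to 8 without single libraries, with 3 without pbp1Δ replicate 3, 4 without pbp1Δ replicate 2 and 5 without pab1Δpbp1Δ replicate 1. The share of all entries called, 21.3% by DESeq2, was 16.4% with edgeR, 20.8% with total counts, 12.6% and 9.94% with limma (pseudocounts of 1 and 0.1), 13.5% and 13.7% without pbp1Δ replicates 2 and 3, and 19% without pab1Δpbp1Δ replicate 1. The pathway list's 4 calls became 2 with edgeR, 1 with limma on either FPKM scale, and 1 to 5 without single libraries, with 1 without pbp1Δ replicate 2 and 2 without pbp1Δ replicate 3 or pab1Δpbp1Δ replicate 3. In pab1Δpbp1Δ over WT, limma on log2(FPKM + 0.1) gave 3 members in place of 9 and 4 listed genes in place of 7, and leaving out single libraries gave 6 to 13 members. In pbp1Δ over WT the count of members was 0 to 1 without single libraries, 1 (RPB4) without pbp1Δ replicate 2, and 0 under the other alternatives. With the length trend removed across libraries, class medians moved to -0.49 (Pol I and III), -0.63 (common), -0.43 (Pol II) and -0.25 (Pol I). The share of counts in the members, with ribosomal proteins left out of the total, was 0.629% in pab1Δpbp1Δ, 0.775% in pbp1Δ and 0.796% in WT. The cause of these shifts was not tested, except that the last follows from the smaller total.

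The difference in RPA135 over RPB2 between pbp1Δ and WT ranged from -0.12 to 0.15 without single libraries, turning negative without pbp1Δ replicate 1 (-0.12) or WT replicate 2 (-0.013). Members near 0 changed sign in pab1Δpbp1Δ over pbp1Δ. With total counts the log2 fold changes were 0.042 for RPA34, 0.0079 for RPA43, 0.065 for RPC25 and 0.11 for RPB2. With limma they were 0.029 and 0.029 for RPA34, 0.0095 and 0.0096 for RPA43, 0.047 and 0.048 for RPC25 and 0.032 and 0.032 for RPB2 with pseudocounts of 1 and 0.1. RPB2 was 0.0056 with edgeR, 0.0090 with a mean count of at least 10 and 0.010 with all 9 libraries. With the length trend removed across libraries, values were -0.17 for RPA14, -0.25 for RPA12, -0.50 for RPC19, -0.25 for RPB5, -0.083 for RPC37, 0.11 for RPB2, -0.021 for RPB11 and -0.48 for RPB9. RPC37 was -0.0028 without ribosomal proteins in the size factors. Without single libraries, the ranges that crossed 0 were -0.23 to 0.0084 for RPA34, -0.19 to 0.14 for RPC19, -0.26 to 0.23 for RPB5, -0.29 to 0.053 for RPB8, -0.19 to 0.28 for RPC37, -0.22 to 0.053 for RPC25, -0.61 to 0.23 for RPB2 and -0.34 to 0.060 for RPB4.

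The main fits did not pair samples by replicate number. Same-numbered libraries correlated at -0.12 to 0.23 (pab1Δpbp1Δ with pbp1Δ), 0.07 to 0.29 (pbp1Δ with WT) and 0.0074 to 0.26 (pab1Δpbp1Δ with WT). Different-numbered libraries correlated at -0.36 to 0.26, -0.32 to 0.12 and -0.25 to 0.21, in the same order. These values do not settle whether the numbers pair the samples in part. With the replicate block, 9, 0 and 9 members and 3, 0 and 6 listed genes were called in pab1Δpbp1Δ over pbp1Δ, pbp1Δ over WT and pab1Δpbp1Δ over WT, and ratios were unchanged by construction. The promoter window was not run, for want of promoter sequences here. Depth limits RPC11, RPC17 and RPC53 most, at under 200 normalized counts in every library.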
